A study of Mus musculus with 2 samples.

Results

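The genes examined here are 8 components and receptors of the complement system, C1qa, C1qb, C1qc, C3, C3ar1, C5ar1, Cfb and Cfp. They were chosen by name for their role, and all 8 were found by symbol among the 31053 genes of the deposited tables. They were measured in 2 single-cell libraries of mouse colon lamina propria cells labelled as cd11b+, 1 of WT genotype and 1 carrying a knockout of a long non-coding RNA (genotype LncRNA17Rik knockout, called lncLy6c in the study; KO below). Per the study the cells were pooled from male mice, purified over Percoll and stained for sorting. No treatment is given for either library. The libraries were made with the 10x 3' chemistry, in which each captured molecule is counted once by a unique molecular identifier (UMI), so that levels below are counts per 1000000 UMIs of a cell class (CPM) and are not scaled by transcript length. Each genotype had 1 library, so there is no replicate, no test between genotypes was possible, and all intervals are 95% intervals that cover counting error only.

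Complement is a cascade of plasma and tissue proteins that tags particles for uptake and calls in leukocytes. The classical pathway starts when C1q, a hexamer of trimers built from the products of C1qa, C1qb and C1qc, binds its target, and all routes meet at the cleavage of C3. Factor B (Cfb) and properdin (Cfp) form and stabilise the C3 convertase of the alternative pathway, and the small fragments cut from C3 and C5 act through the receptors C3ar1 and C5ar1. Tissue macrophages are a known source of C1q, while most circulating C3 comes from the liver.

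The tables held 3185 WT and 3020 KO barcodes with 22191774 and 23384895 UMIs. The cell numbers given in the study are larger than the barcodes analysed here, by far in WT and by less in KO. Class sizes and shares therefore describe these barcodes only. After filtering, 2597 WT and 2514 KO cells remained, with a median of 5073 and 6564.5 UMIs, and 1 barcode was shared by both libraries. Itgam, which encodes CD11b, had a UMI in 40.0% of WT and 57.8% of KO cells, and the libraries also held B, plasma, T, epithelial and fibroblast-like cells in which Itgam lay between 0 and 51.1 CPM. The symbol on the genotype label matched no gene symbol in the tables, so the deletion itself was not checked here.

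Cells were clustered without the complement genes and named from marker lists that hold none of them. The resident macrophage-like class was 1 cluster of 119 WT and 120 KO cells (median 5285 and 7425 UMIs) in which all 12 macrophage markers were raised, among them Apoe, Ms4a7 and Mrc1. The inflammatory monocyte-like class held 60 WT and 326 KO cells with Ly6c2 at 1380 and 1169 CPM. An intermediate cluster carried 7 of the 12 macrophage and 5 of the 11 monocyte markers and was nearly all WT, with 713 WT and 47 KO cells, so that its state and its library cannot be told apart. A further cluster, led by Retnla, Mgl2 and Ccl24, had raised cDC2 markers without Flt3 and stayed unnamed. It is called the Mgl2 cluster here and held 23 WT and 268 KO cells. Values of classes with fewer than 50 cells in a library rest on few cells, and these are the KO intermediate, epithelial, fibroblast and plasma cells, the WT Mgl2 cluster, and NK-like and mature dendritic-like cells of both libraries.

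The 3 C1q genes lie side by side on the minus strand of chromosome 4 (mm10), in the order C1qb, C1qc and C1qa, within 18675 bases from 136880129 to 136898803 and with no other annotated gene between them. C3 lies at 57203970-57228136 and Cfb at 34856374-34862518 on chromosome 17. C3ar1 lies on chromosome 6 (122847138-122856161), C5ar1 on chromosome 7 (16246743-16259540) and Cfp on chromosome X (20925454-20931555). All are on the minus strand. Cfb is overlapped on the same strand by the annotated gene Gm20547, which had 0 UMIs in both libraries, and reads shared by overlapping genes may have been left out of the Cfb count. Promoter windows from 250 bases before to 50 bases after the annotated start were held for 6 of the 8 members in the RefSeq table (GRCm38.p6). Those of C1qb and C1qc, both highest in resident macrophage-like cells, and of C3, which was low there and high in monocyte-like cells, are shown with the matches to 3 of the 7 motifs searched in capitals. The windows are chr4:136886151-136886450 for C1qb, chr4:136892865-136893164 for C1qc and chr17:57228087-57228386 for C3, each read 5′ to 3′ on the minus strand.
C1qb: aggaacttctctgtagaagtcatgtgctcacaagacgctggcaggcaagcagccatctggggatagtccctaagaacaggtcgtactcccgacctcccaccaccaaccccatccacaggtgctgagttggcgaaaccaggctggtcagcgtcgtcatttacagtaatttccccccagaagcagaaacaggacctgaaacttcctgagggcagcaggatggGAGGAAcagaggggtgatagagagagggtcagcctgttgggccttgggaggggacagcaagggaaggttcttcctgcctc
C1qc: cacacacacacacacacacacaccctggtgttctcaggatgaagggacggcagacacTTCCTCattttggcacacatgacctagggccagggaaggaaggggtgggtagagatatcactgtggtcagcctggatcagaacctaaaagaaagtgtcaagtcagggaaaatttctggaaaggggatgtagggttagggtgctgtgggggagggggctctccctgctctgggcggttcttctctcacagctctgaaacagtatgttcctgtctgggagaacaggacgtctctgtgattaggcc
C3: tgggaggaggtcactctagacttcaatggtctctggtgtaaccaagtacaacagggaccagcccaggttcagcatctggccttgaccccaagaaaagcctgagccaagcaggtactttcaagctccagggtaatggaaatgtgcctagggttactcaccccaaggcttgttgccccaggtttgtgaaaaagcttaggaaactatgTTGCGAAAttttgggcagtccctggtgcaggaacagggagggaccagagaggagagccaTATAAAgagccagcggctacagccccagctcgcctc
The capitals mark GAGGAA, the core bound by PU.1 and other ETS factors (TTCCTC on the opposite strand), TTGCNNAA, a C/EBP type motif, and the letters TATAAA. The first occurred 1 time each in C1qb and C1qc and 2 times in Cfp, and in none of the other 3 windows. Both strands were searched, and it was present in 28.3% of all 32851 windows. TTGCNNAA was found in C3 alone of the 6, and in 10.8% of all windows. TATAAA was found in C3, 15 bases after the annotated start, and in C3ar1, at -235 from its start, and in 13.6% of all windows. The other 4 motifs were an interferon-stimulated response element, the STAT motif TTCNNNGAA, an NF-kB motif and the MAF motif TGCTGAC. They matched none of the 6 windows, and 3.44%, 8.3%, 1.47% and 4.67% of all windows. These matches are descriptions of the letters in the windows.

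**Figure D1:**
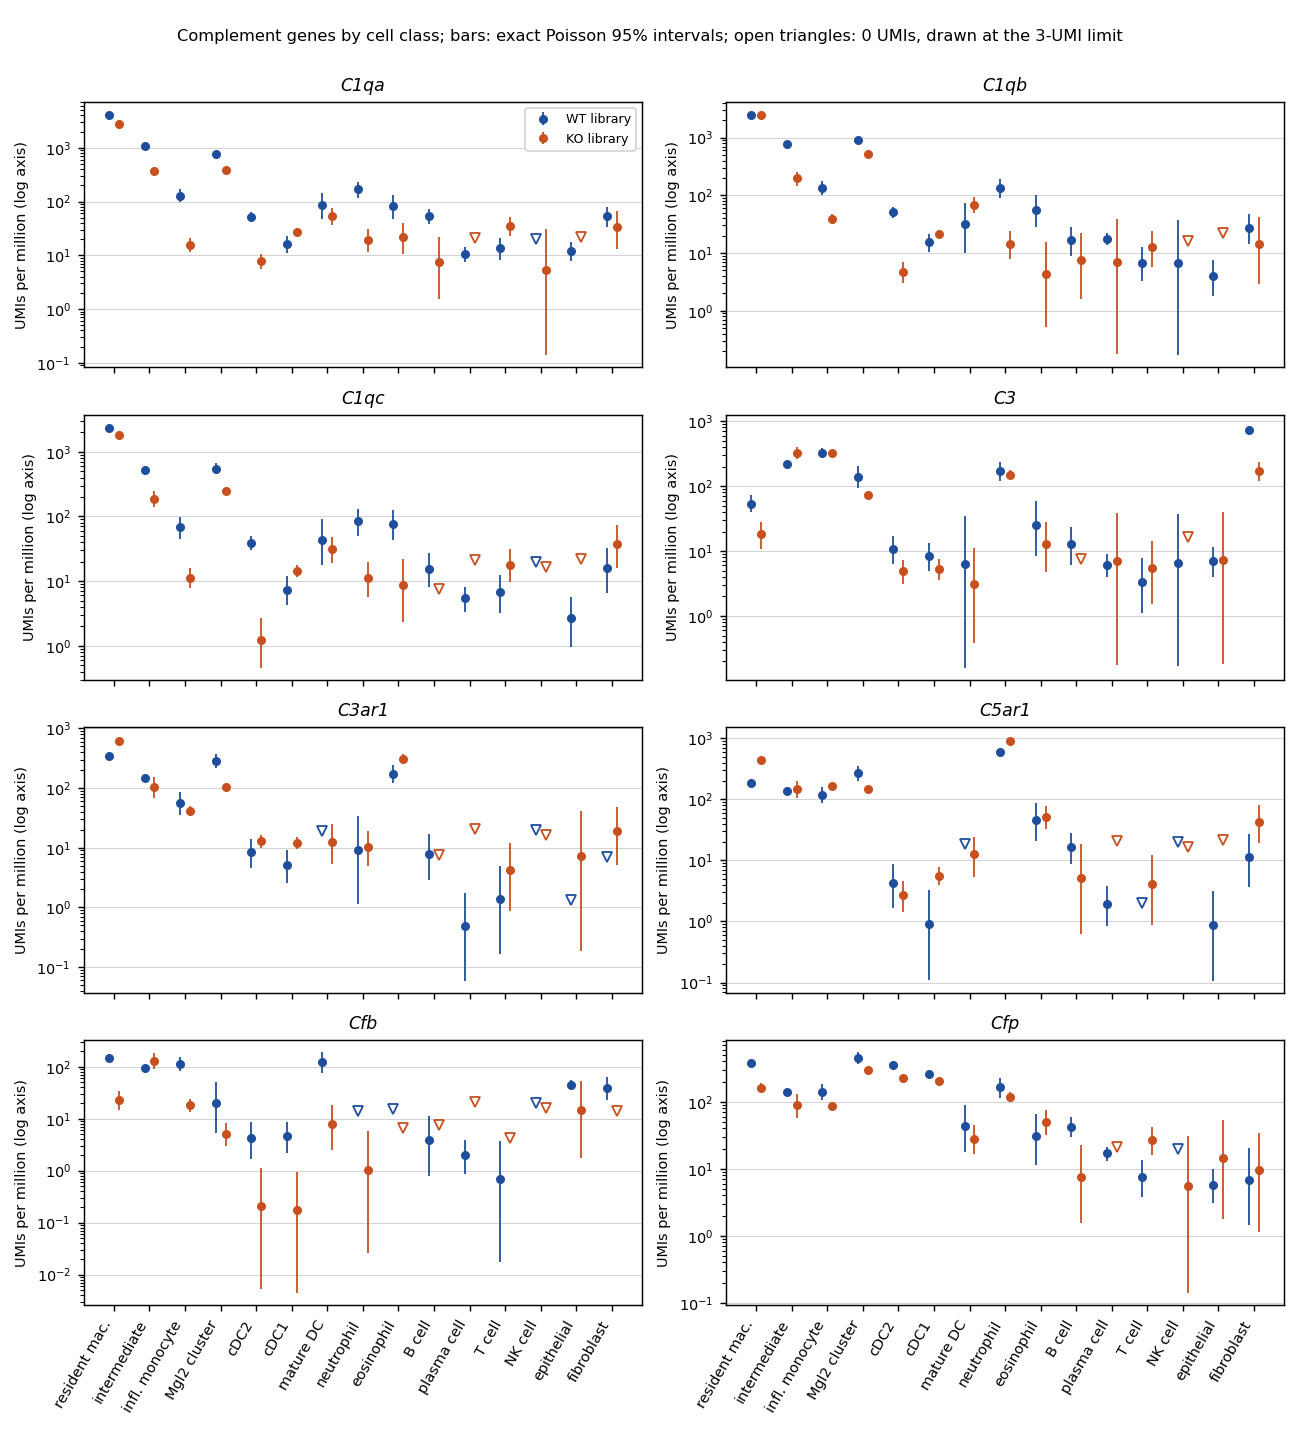
Level of each of the 8 complement genes (CPM of the class, log axis) in 15 cell classes, in the WT (blue) and the KO library (orange), with exact Poisson 95% intervals. Open triangles are classes with 0 UMIs, drawn at the level of 3 UMIs. The 3 C1q genes were highest in resident macrophage-like cells, C5ar1 in neutrophil-like cells, and Cfp was spread over macrophage, dendritic, neutrophil and monocyte classes.

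C1q, the recognition part of the classical pathway, was found mainly in macrophage-like cells of both libraries. In resident macrophage-like cells C1qa reached 4120 CPM in WT (interval 3984 to 4260) and 2802 in KO (2701 to 2905). C1qb stood at 2465 in WT and 2431 in KO, and C1qc at 2350 and 1849. Every resident macrophage-like cell of either library had at least 1 C1q UMI, and 89.9% of WT and 91.7% of KO cells had UMIs of all 3 genes. The class made up 4.58% of WT and 4.77% of KO cells but held 41.4% and 58.9% of all C1q UMIs.

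The other main source differed between the libraries. In WT it was the intermediate cluster, with C1qa at 1085, C1qb at 767 and C1qc at 521 CPM and 50.2% of all C1q UMIs. In KO it was the Mgl2 cluster, with C1qa at 387, C1qb at 519 and C1qc at 246 and 32.1% of all C1q UMIs. The KO cells of the intermediate cluster had C1qa at 368, and the 23 WT cells of the Mgl2 cluster had it at 753. Inflammatory monocyte-like cells were low, with C1qa at 129 in WT and 15.5 in KO, and 1 WT cell held 45.1% and 1 KO cell 63.6% of the C1qa UMIs of the class.

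Shares of positive cells were compared after each cell was thinned to 2000 UMIs, which left out 28 WT and 15 KO resident, 172 WT and 16 KO intermediate, and 2 WT and 19 KO monocyte-like cells. Any C1q UMI was then present in 100% of resident cells of both libraries, in 56.7% of WT and 32.3% of KO intermediate cells, and in 10.3% of WT and 3.58% of KO monocyte-like cells. Before thinning, these shares were 100% in resident cells, 61.3% and 44.7% in intermediate cells and 15.0% and 6.75% in monocyte-like cells. T and B cells, which do not make C1q, gave the background. Thinned shares were 3.36% and 1.87% in WT and KO T cells (median 4968.5 and 5844 UMIs) and 4.19% and 4.76% in B cells (2954.5 and 4394 UMIs), so the KO monocyte-like share lay within the range of background. WT epithelial-like cells stood at 4.30%. Neutrophil-like cells had C1q in 17.0% of 53 thinned WT cells and in 2.02% of 248 KO cells.

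The mixture of the 3 C1q messages differed between libraries in resident cells and between classes. In WT resident cells C1qa gave 46.1% of the C1q UMIs (interval 45.0 to 47.3), C1qb 27.6% and C1qc 26.3%. In KO resident cells C1qa gave 39.6% (38.4 to 40.7), C1qb 34.3% and C1qc 26.1%. The ratio of C1qa to C1qb was thus 1.67 in WT and 1.15 in KO, and the intervals, 1.58 to 1.77 and 1.09 to 1.22, did not overlap. Thinned to 2000 UMIs, the ratios were 1.83 (1.62 to 2.07) and 1.38 (1.22 to 1.56). In the Mgl2 cluster C1qb was the larger, at 40.9% in WT and 45.0% in KO against C1qa at 34.2% and 33.6%, and the ratio was 0.835 (0.669 to 1.04) and 0.746, the KO interval lying below 1. Thinned, it was 1 in the 23 WT cells and 0.786 (0.654 to 0.944) in KO. The WT intermediate cluster stood at 1.42 (1.35 to 1.48). The ratios compare 1 pair of messages across classes, and do not give the stoichiometry of the protein.

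**Figure D2:**
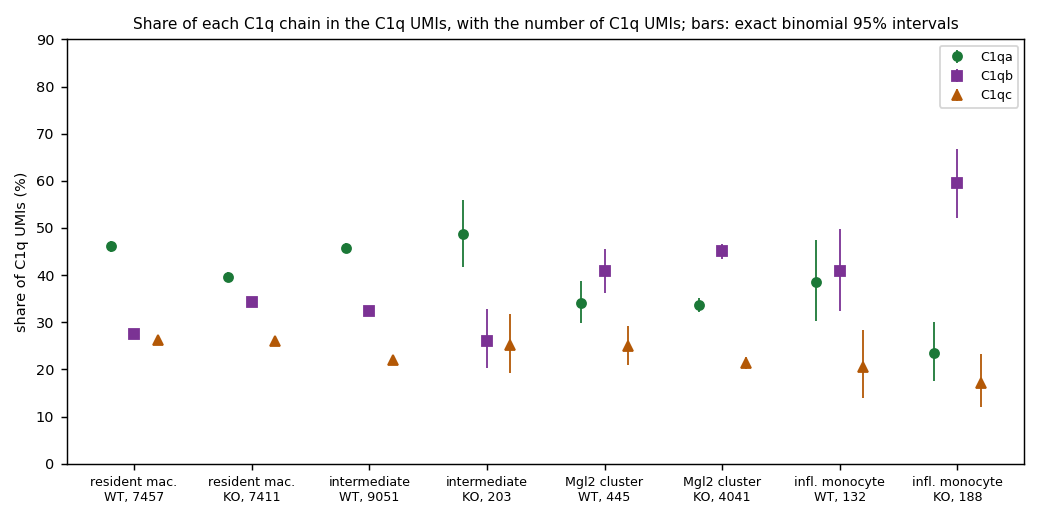
Share of C1qa, C1qb and C1qc in the C1q UMIs (percent, y axis) of 4 phagocyte classes in the WT and KO libraries, with exact binomial 95% intervals and the number of C1q UMIs under each name. C1qa led in resident and intermediate cells and C1qb in the Mgl2 cluster, where the WT values rest on 23 cells. In monocyte-like cells C1qb stood at 40.9% in WT and 59.6% in KO, on only 132 and 188 C1q UMIs.

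C3, the protein on which all pathways converge, followed the reverse course from monocyte-like to resident cells. In monocyte-like cells it stood at 329 CPM in WT (275 to 390) and 321 in KO (300.3 to 342). In the intermediate cluster it was 218 in WT and 327 in the 47 KO cells, and in resident cells 53.9 in WT (39.3 to 72.1) and 18.2 in KO (10.9 to 28.4). After thinning, 44.8% of WT and 42.3% of KO monocyte-like cells had a C3 UMI, against 5.49% and 1.90% of resident cells. Within the WT intermediate cluster, thinned cells without a C1q UMI had C3 in 35.5% (29.3 to 42.0, 234 cells), and cells with C1q had it in 23.8% (19.1 to 28.9, 307 cells), so C3 was less frequent beside C1q in that cluster. This was not seen in the KO Mgl2 cluster, where C3 was in 12.4% of 113 thinned cells with C1q and 12.0% of 142 without. The other classes had few cells on 1 side, and in WT the direction was the reverse in monocyte-like cells (66.7% of 6 with C1q and 42.3% of 52 without) and in the Mgl2 cluster (29.4% of 17 and 0 of 6). In KO, C3 was less frequent beside C1q in intermediate cells (20% of 10 and 42.9% of 21) and in monocyte-like cells (36.4% of 11 and 42.6% of 296). The intervals overlapped in each of these small comparisons. Outside these classes, fibroblast-like cells had the highest WT level, 740 (661 to 825), against 169 in the 21 KO cells, and neutrophil-like cells stood at 172 and 151.

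**Figure D3:**
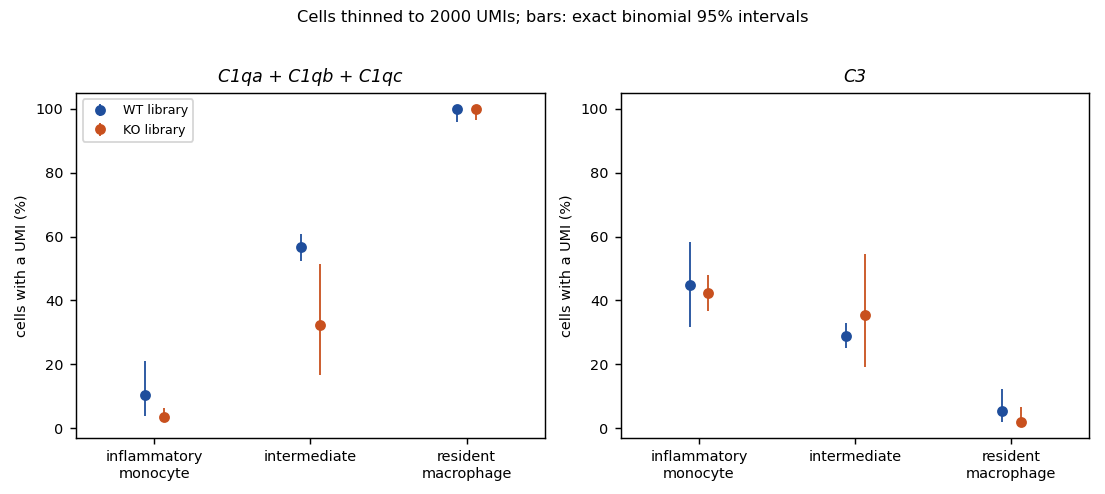
Percent of cells with a UMI of any C1q gene (left) and of C3 (right) in monocyte, intermediate and resident classes, each cell thinned to 2000 UMIs, with exact binomial 95% intervals. C1q was found in 100% of resident cells of both libraries, while C3 was found in 44.8% of WT and 42.3% of KO monocyte-like cells and in 5.49% and 1.90% of resident cells.

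Cfb, the protease of the alternative pathway convertase, was counted mainly in the WT library. Over all kept cells it had 712 UMIs in WT and 138 in KO. Among WT classes of at least 50 cells it was highest in resident cells, at 146 CPM (121 to 175), followed by monocyte-like (114) and intermediate cells (96.7), and the intervals of these neighbours overlapped. In KO it was 22.9 in resident and 18.0 in monocyte-like cells, while the 47 intermediate cells stood at 130. Of the WT resident cells 25 had a Cfb UMI, at up to 22 per cell. Of the KO resident cells only 3 had one, and a single cell held 22 of the 24 UMIs. The smaller of the 2 monocyte-like clusters, led by Rsad2, Ccl7 and Ifit3 among others, had Cfb at 373 in 13 WT cells (262 to 514) and 80.3 in 37 KO cells (49.1 to 124), and the larger had it at 27.0 and 12.0. WT epithelial-like cells had Cfb at 45.5, with a UMI in 43.9% of 123 cells of high depth (median 18679 UMIs) and in 9.68% after thinning.

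Cfp, which encodes the properdin that stabilises that convertase, was found mainly in macrophage and dendritic classes. In WT the intervals of resident cells (380 CPM, 339 to 424) and cDC2-like cells (352, 324 to 381) overlapped, and it was 263 in cDC1-like cells. The 23 WT cells of the Mgl2 cluster had 451 (363 to 554). In KO it was 302 in the Mgl2 cluster, 224 in cDC2-like, 205 in cDC1-like and 161 in resident cells. Neutrophil-like cells had 163 in WT and 118 in KO, and monocyte-like cells 142 and 87.3. The intervals of resident and neutrophil-like cells overlapped in KO. The dendritic classes cDC1 and cDC2 together with the Mgl2 cluster held most Cfp UMIs of the KO library, at 30.1%, 27.4% and 26.6%. In WT the cDC2-like, cDC1-like and intermediate cells held 25.0%, 24.3% and 22.6%.

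The receptor C3ar1, which senses the C3a fragment, was highest in resident cells, at 347 CPM in WT (309 to 390) and 606 in KO (560 to 655). Among classes of at least 50 cells, eosinophil-like cells came next, at 173 (120 to 242) and 309, and their median depth was only 759 and 971 UMIs. The intermediate cluster had 147 (135 to 160) and 104, so that these neighbours overlapped in WT, and monocyte-like cells 55.6 and 41.3. In the WT intermediate cluster C3ar1 was found in 29.0% of thinned cells with C1q (24.0 to 34.4) and in 13.2% of those without (9.18 to 18.3), so C3ar1 went with C1q there. C5ar1 was in 22.2% (17.6 to 27.2) and 20.1% (15.1 to 25.8) of the same cells, a difference within counting error. In the KO Mgl2 cluster C3ar1 was in 24.8% of thinned cells with C1q and 6.34% of those without, and C5ar1 in 34.5% (25.8 to 44.0) and 10.6% (6.03 to 16.8).

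C5ar1, the receptor for C5a, had its highest level in neutrophil-like cells, at 596 CPM in WT (497 to 709) and 907 in KO (849 to 969). Among classes of at least 50 cells, resident cells were next, at 188 in WT (160 to 220) and 441 in KO (402 to 484). Monocyte-like cells had 119 and 163, and the Mgl2 cluster 268 and 149. By number of UMIs the main WT source was the intermediate cluster, with 54.8% of all C5ar1 UMIs against 16.3% in resident and 13.3% in neutrophil-like cells. In KO neutrophil-like cells held 36.0%, the Mgl2 cluster 21.2%, and resident and monocyte-like cells 18.7% each. B and T cells of both libraries and both named cDC classes were at or under 16.7.

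Set against each other within resident macrophage-like cells, the receptors C5ar1 and C3ar1 were higher in KO, and Cfb, C3 and Cfp lower. The KO to WT ratio of CPM was taken on the log2 scale. C5ar1 was 2.35 times as high in KO (log2 ratio 1.23, 0.97 to 1.501), with a UMI in 54.6% of WT and 79.2% of KO cells, or 27.5% and 57.1% after thinning. C3ar1 was 1.74 times as high (0.80, 0.60 to 1.01), with thinned shares of 51.6% and 75.2%. Cfb had a log2 ratio of -2.67 (-3.37 to -2.03), C3 of -1.57 (-2.43 to -0.77) and Cfp of -1.23 (-1.51 to -0.96). Leaving out the cell with the most Cfb UMIs in each library gave -5.95 for Cfb. Cfp was under 2-fold in 7 alternatives of clustering or class assignment, from -0.97 with 4000 variable genes to -0.0025 with each library clustered alone, and was -0.86 after thinning. C1qa had -0.56 (-0.63 to -0.49), C1qc -0.35 (-0.44 to -0.25) and C1qb -0.02 (-0.10 to 0.06). Between these 2 libraries the ratios of the 3 C1q genes thus differed by more than counting error, all under 2-fold. Their summed level of 8934 CPM in WT and 7081 in KO was also less than 2-fold apart. Centred on the median gene, their log2 ratio moved from -0.34 to -0.12, and it was 0.70 with the intermediate cluster counted as resident.

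Of the 8 members, all of which had at least 50 UMIs over both libraries in resident cells, C5ar1 was at least 2-fold higher in KO, where 3.5% of 4399 genes were. C3, Cfb and Cfp were at least 2-fold lower, where 7.18% of all genes were. The C3 call rested on 45 WT and 19 KO UMIs and ended at resolution 0.5 (-0.88). After thinning none of the 3 was called, since C3 and Cfb fell under the minimum of 50 UMIs and Cfp was under 2-fold. The median log2 ratio was -0.45 over the members and -0.22 over all genes. The same cells differed between libraries in other ways. Of the 12 macrophage markers, Cd163 (77.9 CPM in WT and 40.1 in KO) and Mertk (104 and 48.7) were lower in KO. Mrc1 (434 and 606) and Trem2 (31.2 and 75.5) were higher in KO. The 12 summed stood at 19087 and 19163, of which Apoe gave 13202 and 13424. Summed epithelial markers were 134 CPM in WT and 45.9 in KO (10 markers, 0 and 2 at 0), plasma cell markers 500 and 258 (8 markers, 1 at 0 in each) and monocyte markers 508 and 372 (11 markers, 1 and 0 at 0). Others were higher in KO, with cDC2 markers at 152 and 467 (8 markers, 0 at 0 in each) and T cell markers at 33.5 and 129 (7 markers, 1 and 0 at 0). Retnla and Mgl2, which led the Mgl2 cluster, stood at 116 and 586 and at 87.5 and 309 in resident cells. The median depth was 5285 and 7425 UMIs. Their part in the ratios was not tested.

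**Figure D4:**
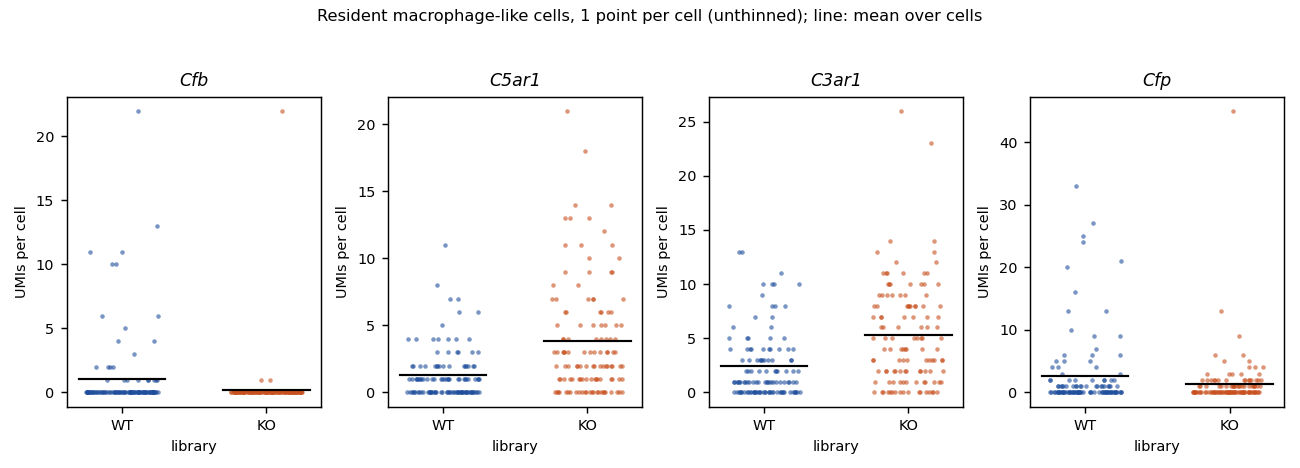
UMIs per cell (y axis, unthinned, scale differs between panels) of Cfb, C5ar1, C3ar1 and Cfp in resident macrophage-like cells of the WT and KO libraries, 1 point per cell, with the mean over cells as a line. Cfb was carried by 25 WT and 3 KO cells, and C5ar1 had a UMI in 54.6% of WT and 79.2% of KO cells.

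In inflammatory monocyte-like cells, 0 of the 8 members were at least 2-fold higher in KO, where 4.01% of 5391 genes were, and C1qa, C1qb, C1qc and Cfb were at least 2-fold lower, where 5.71% were. The log2 ratio of Cfb was -2.66 (-3.27 to -2.05). The smaller monocyte-like cluster held 37 of the 45 WT Cfb UMIs in its 13 cells, and within the larger and smaller cluster the ratio was -1.17 (-2.32 to 0.16) and -2.21 (-3.08 to -1.39). C3 stood at -0.03 (-0.30 to 0.24) and C5ar1 at 0.46 (0.024 to 0.92), with -0.07 (-0.52 to 0.41) in the larger cluster and 4.13 (2.24 to 7.20) in the smaller, where it had 2 UMIs in WT and 88 in KO. The C1q call also rested on the smaller cluster, which held 119 of the 132 WT C1q UMIs of the class, in 4 cells. In the larger cluster summed C1q was 43.9 CPM in WT (23.4 to 75.0) and 65.9 in KO (56.3 to 76.5), and single KO cells weighed heavily in it, the highest of the class holding 72 of 112 C1qb UMIs and 28 of 44 C1qa UMIs. With the stricter cell filter the C1q calls of the class ended, at -0.31 for C1qa, 0.32 for C1qb and -0.066 for C1qc. In the intermediate cluster, 0 members were at least 2-fold higher, where 2.67% of 6415 genes were, and the 3 C1q genes were at least 2-fold lower, where 12.8% were, with log2 ratios from -1.96 (C1qb) to -1.46 (C1qc). Each of these calls ended with the stricter cell filter (-0.94 for C1qa, -0.51 for C1qb, -0.62 for C1qc) and at clustering resolution 0.5 (-0.67, -0.030 and -0.45), where the cluster took in 140 KO cells. The summed macrophage markers of the cluster were 5905 CPM in WT and 2890 in KO (12 markers, 0 and 1 at 0), and their part in the C1q ratios was not tested. There Cfb stood at 0.43 (-0.12 to 0.93) in 47 KO cells, of which 1 held 57.1% of its UMIs. It was -0.62 without the highest cell of each library and -1.89 with 4000 variable genes.

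Pooling resident, intermediate and monocyte-like cells removed the choice of where to split them, but not the difference in their numbers. In this pool of 892 WT and 493 KO cells the log2 ratio was -0.81 for summed C1q, -0.75 for Cfp, 0.29 for C3, 0.12 for C3ar1 and 0.68 for C5ar1, and Cfb stood at 106 CPM in WT and 26.5 in KO. The pool holds relatively more monocyte-like cells in KO, so that a lower level per cell and fewer cells with the transcript cannot be told apart in it. With the Mgl2 cluster added to the pool, an alternative chosen after seeing the data, C3 turned to -0.25, C3ar1 to -0.26 and Cfp to 0.049.

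**Figure D5:**
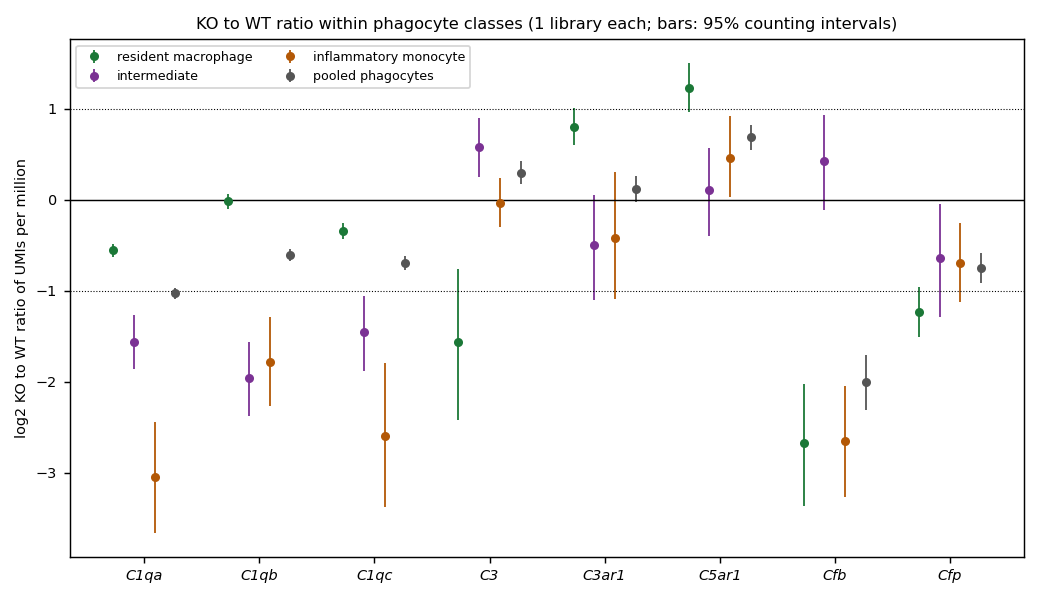
Log2 ratio of KO to WT CPM (y axis) for the 8 complement genes in resident, intermediate and monocyte classes and in the 3 pooled, with exact 95% counting intervals. Dotted lines mark a 2-fold difference. In resident cells C5ar1 and C3ar1 lay above 0 and Cfb, C3 and Cfp below, while Cfb lay below 0 in monocyte-like cells too, and its interval in the intermediate cluster, -0.12 to 0.93, included 0.

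The receptors and Cfp were also compared in other classes. C5ar1 in neutrophil-like cells had a log2 ratio of 0.61 (0.34 to 0.88) and a thinned share of 60.4% in WT and 81.5% in KO. C3ar1 in eosinophil-like cells had 0.84 (0.29 to 1.42). In the Mgl2 cluster, with 23 WT cells, both receptors were lower in KO, C5ar1 at -0.84 (-1.25 to -0.41) and C3ar1 at -1.49 (-1.89 to -1.06), and Cfp stood at -0.58 (-0.89 to -0.25). Cfp had -0.65 (-0.79 to -0.50) in cDC2-like and -0.36 (-0.50 to -0.21) in cDC1-like cells. All of these comparisons share the same 2 libraries. The cDC1 value turned positive under 3 alternatives (0.059 to 0.20).

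Some KO resident cells carried Ifnb1, the type I interferon gene, which had no UMI in WT resident cells. The 41 KO cells with an Ifnb1 UMI had C3ar1 at 835 CPM against 471 in the 79 without, with median depths of 8745 and 6864 UMIs. Cfp stood at 93.1 (65.2 to 129) and 202 (169 to 239), but a single cell of the 79 held 45 of their 133 Cfp UMIs. Summed C1q was 6398 and 7482. Cfb was not compared, since a single cell held 22 of its 24 UMIs.

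Of 44 other complement genes listed, 43 were found by symbol and 20 had at least 50 UMIs over all kept cells. In resident cells 9 had at least 50 UMIs. Of these, 1 was at least 2-fold higher in KO, against 3.5% of all genes, and 0 were at least 2-fold lower, against 7.18%. Their median log2 ratio was -0.09 against -0.22 over all genes. The second C5a receptor C5ar2 stood at 39.5 and 41.1, and the complement receptor chains Itgam and Itgax at 259 and 165 and at 343 and 204. Cd93 was higher in KO, at 145 in WT and 247 in KO (log2 ratio 0.77, 0.45 to 1.09). In monocyte-like cells 0 of 9 were higher, against 4.01% of all genes, and 2, Itgax and C1qbp, were lower, against 5.71%. In the intermediate cluster 0 of 9 were higher, against 2.67%, and 1, Cd93, was lower, which is near the 12.8% of all genes.

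The genes most like each member were sought over 21 units of class and library with at least 50 cells, by Pearson correlation of log2(CPM + 10) among 11089 genes. The units share libraries and depth, so the values are descriptions. The mean of the 3 C1q genes was most like Ms4a7 (r = 0.96), Itga9 (0.93), Tmem37 (0.90), Stab1 (0.90) and Mmp13 (0.89), and Ms4a7 was among the naming markers. C3 was most like Dram1 (0.92), Tnfaip6 (0.91) and the monocyte marker F10 (0.90). C3ar1 was most like Adgre1, a naming marker that encodes F4/80 (0.96), Slc7a8 (0.94) and Tbxas1 (0.86). C5ar1 was most like Slc11a1 (0.95), Hk3 (0.93) and Igsf6 (0.93), Cfb like Oas1g (0.88), Nr1h3 (0.87) and Gab1 (0.87), and Cfp like Plbd1 (0.94), Havcr2 (0.93) and Gm2a (0.91). By Spearman correlation every list changed in part, and the 3 genes nearest C5ar1 were all others (Atp6v0b, F630028O10Rik and Cxcl2). Pdlim4 (0.90) then led the C1q list, and Itga9, Tmem37 and Mmp13 left it. Tnfaip6 left the C3 list, Slc7a8 the C3ar1 list, Nr1h3 and Gab1 the Cfb list, and Plbd1 the Cfp list. At a minimum of 200 UMIs Oas1g left the Cfb list.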

How the data were processed

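The deposited matrices held raw UMI counts per gene and barcode, which the authors had made with mm10 per the submitters' processing notes. The matrix headers name software version 3.0.2, and Seurat 4 is listed in the submitters' processing notes. The members and all gene lists were chosen with earlier results of these data known. From the counts, cells with 200 to 6000 genes and at most 15% mitochondrial UMIs were kept. Counts were scaled to 10000 per cell and log-transformed, and 2000 variable genes without complement genes, 30 principal components, 15 neighbours and Leiden resolution 1 gave the clusters (scanpy 1.11.5, leidenalg 0.10.2). Each cluster was named by the marker list of which the highest share of genes was raised 2-fold. The rules for the intermediate (at least 40% of both marker lists raised) and Mgl2 clusters were set after the first clustering was seen. Scrublet called 1 WT and 9 KO cells, which was too few to rely on, and no doublets were removed except in an alternative. UMIs were summed per class and library, with exact Poisson intervals for levels, Clopper-Pearson intervals for shares and conditional binomial intervals for ratios, all at 95%, and shares were also taken after thinning to 2000 UMIs per cell (scipy 1.17.1). A 2-fold difference used a prior of 1 CPM and genes with at least 50 UMIs. The ratio script was tested on simulated data. Named genes were the 8 members, other complement genes with at least 50 UMIs in the class described, and the 5 (C1q) or 3 most correlated genes among those with at least 100 UMIs. Alternatives covered cell filters, clustering, class assignment, doublets, scaling, depth and priors. Genes were placed with GENCODE M21. Some genes, and the results that need them, are not reported here.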

Additional observations from a re-analysis of the deposited data

Results flagged for a closer look

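C3ar1 went in opposite directions in 2 classes. Its log2 KO to WT ratio was 1.24 in cDC1-like cells, at 5.09 CPM in WT (11 UMIs) and 12.0 in KO (70 UMIs), and -1.49 in the Mgl2 cluster, at 287 in 23 WT cells and 102 in 268 KO cells. The cDC1 levels are low, WT B cells standing at 7.72 CPM, and the ratio turned to -0.70 when cells were assigned by highest marker score. The difference between the classes was not tested, since each genotype had 1 library.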

How the results depend on the processing

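The direction in resident macrophage-like cells held for C5ar1 (log2 ratio 1.11 to 1.69), C3ar1 (0.47 to 1.46), C3 (-2.49 to -0.88) and Cfb in all 15 alternatives each. Cfb was -4.25 by highest marker score, -1.24 with the intermediate cluster counted as resident, -4.11 after thinning and -5.95 without its highest cells, the last being chosen after seeing the data. Cfp was -1.23 but -0.0025 when each library was clustered alone, where the WT class held 421 cells. Summed C1q, -0.34, was -0.12 with the stricter cell filter and when centred on the median gene, -0.28 with every barcode and without top doublet scores, -0.65 at resolution 0.5, -0.39 with libraries clustered alone, -0.030 with complement genes among the variable genes, and -0.23 by marker score and after thinning. It turned to 0.0074 at resolution 2 and to 0.70 with the intermediate cluster counted as resident. C1qa then turned to 0.50, and C1qc to 0.83, to 0.069 at resolution 2 and to 0.057 with complement genes among the variable genes. Members at least 2-fold higher numbered 2 with the stricter filter, after centring and when intermediate cells joined the resident class. Those lower numbered 1 at resolution 0.5 (Cfb) and with a minimum of 200 UMIs (Cfp), and 0 after thinning, where fewer UMIs were left. They numbered 2, without Cfp, at resolution 2, with 4000 variable genes, with libraries clustered alone, with complement genes among the variable genes, by marker score and with intermediate cells counted in. In the intermediate cluster C3 turned to -0.079 with 4000 variable genes, and Cfp to 0.026 with the stricter filter and 0.26 at resolution 0.5. In monocyte-like cells the stricter filter turned C1qb to 0.32 and summed C1q to 0.0049, and took C1qa to -0.31 and C1qc to -0.066. In cDC1-like cells C3ar1 turned to -0.70 by marker score, and Cfp to 0.059 with the stricter filter, 0.17 with libraries clustered alone and 0.20 by marker score. Adding the Mgl2 cluster to the pool, chosen after seeing the data, turned C3 to -0.25, C3ar1 to -0.26 and Cfp to 0.049. The cause of these changes was not tested, but the WT resident class ranged from 111 to 832 cells with the assignment. Over all alternatives, 383 ratios stayed within the counting interval and 166 moved beyond it. A further 17 turned, counting only ratios whose own interval left out 0. Ratios nearer 0 changed sign more often, and C1qb in resident cells kept its sign in 4 of 15 alternatives. The intermediate class was absent at resolution 2, with complement genes among the variable genes, by marker score and in KO clustered alone, and gave no value there. Nor did cDC2-like cells at resolution 2 or in KO clustered alone, or WT monocyte-like and eosinophil-like cells clustered alone. No paired analysis was possible because each genotype had 1 library.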

Other observations

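Fibroblast-like cells, 80 in WT and 21 in KO, carried classical pathway genes that were low in resident macrophage-like cells. C4b, which encodes the C4 that the C1 proteases cut, stood at 1466 CPM in WT and 160 in KO, and had 25 and 5 UMIs in resident cells. The protease genes C1s1 and C1ra stood at 1151 and 701 and at 701 and 343, and Serping1, which encodes the C1 inhibitor, at 1369 and 1162. C1q itself stood there at 96.5 in WT and 84.7 in KO for the 3 genes summed.

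Mature dendritic-like cells, led by Fscn1 and Ccl22, had Cfb at 125 CPM in 19 WT cells and 7.83 in 41 KO cells, and 3 of the WT cells carried it.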
